A study of Mus musculus with 10 samples.

Results

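The 10 genes described here encode proteins with which the gut epithelium meets bacteria. Among them are the REG3 lectins Reg3a, Reg3b and Reg3g and the serum amyloid A proteins Saa1 and Saa2. Duox2 makes hydrogen peroxide, and Duoxa2 is its maturation factor. The others are the inducible nitric oxide synthase Nos2, the iron-chelator binder Lcn2 and the goblet cell protein Retnlb. The 10 genes were taken by gene name, with no threshold on a measured value. All 10 were found among the 24368 genes of the table. The tissue was mouse proximal jejunum, the upper fat-absorbing gut, and its total RNA was sequenced. The first group, labelled cKO, is 5 mice with a conditional knockout of HuR in the intestinal epithelium. The second, labelled WT, is 5 wild-type littermates. HuR, encoded by Elavl1, is an RNA-binding protein known for holding AU-rich stretches in the 3′ UTRs of mRNAs, among them those of cytokines and inducible enzymes, and the series was made to ask about fat absorption. The sources used here do not give strain, sex, age, diet, the Cre driver or the deleted exons. The libraries are labelled as tissue, whose non-epithelial cells keep HuR, and fewer cells of a type and less RNA per cell cannot be told apart in such data.

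Values below are normalised reads, which are reads per gene divided by 1 size factor per library. Depth was 16063987 to 18927440 reads per library. Elavl1 had 724.8, 639.3, 627.8, 619.3 and 555.5 normalised reads in cKO 1 to cKO 5, against 695.5, 631.8, 630.5, 663.4 and 709.3 in WT 1, 3, 4, 5 and 6. The log2 fold change, cKO over WT throughout, was -0.08 with a limma adjusted p of 0.798, so the mRNA of the targeted gene did not separate the labels. Reads from exons outside the deleted part check nothing. Mitochondrial genes took 9.48% of reads in cKO 1, against 2.69% to 6.09% in the other 9 libraries. The clock gene Per2 stood at 12.7 normalised reads in cKO 3 and 16.0 in cKO 5, against 341.9 to 749.4 in the other 8, so members whose value moves without these mice are also given without them. Sums of 8 enterocyte markers were 607191 to 1136107 normalised reads in cKO and 732258 to 879444 in WT, and 0 of the 8 passed the test.

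Epithelial cells make REG3 lectins at low levels without bacteria and at high levels with them. The known route runs from microbial sensing in myeloid cells to interleukin-22 from lymphoid cells, and from its epithelial receptor to STAT3. REG3G and REG3B bind parts of the bacterial envelope and help to keep bacteria off the epithelial surface. Serum amyloid A, DUOX2, iNOS and lipocalin-2 answer to overlapping signals, namely interleukin-17, NF-kB and interferons, while RELMb, the product of Retnlb, is best known from interleukin-13 and worm infection.

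The 3 Reg3 genes lie within 1 cluster of REG genes on chromosome 6, which spans 98.2 kb (mm10, the build of the table). Reg3b (chr6:78370657-78373466, + strand) stands at one end and Reg3g (chr6:78466269-78468872, - strand) at the other, with Reg3d, Reg3a (chr6:78380709-78383827, + strand), Reg2 and Reg1 between them. Reg3b and Reg3g share 75.95% of aligned coding bases and 69.0% of 300 promoter bases. Reg3a shares 73.3% of coding bases with Reg3b and 72.54% with Reg3g, and no stretch of 50 bases is common to any pair of their mRNAs. The stretches around their RefSeq starts (GRCm38.p6) are shown because Reg3b and Reg3g hold the letters TATAAA before the start. Reg3a holds a similar stretch with C in place of the first T of these letters. In Reg3a that place lies after the RefSeq start, near the end of the stretch shown. The Reg3b and Reg3g stretches run from 80 bases before the start to 20 after it, the Reg3a stretch from 70 before to 30 after it, and capitals mark the letters TATAAA.
Reg3b, chr6:78370805-78370904, + strand: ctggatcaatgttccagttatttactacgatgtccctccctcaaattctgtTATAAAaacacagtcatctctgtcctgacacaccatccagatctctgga
Reg3g, chr6:78468855-78468954, - strand: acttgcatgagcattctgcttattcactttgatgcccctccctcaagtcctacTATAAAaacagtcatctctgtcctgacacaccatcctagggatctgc
Reg3a, chr6:78380639-78380738, + strand: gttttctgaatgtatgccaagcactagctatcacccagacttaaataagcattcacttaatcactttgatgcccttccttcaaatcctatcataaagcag
TATAAA begins 29 bases before the start in Reg3b and 27 before it in Reg3g. It was not found on the given strand in the 300 bases of Reg3a. Of 27025 RefSeq promoters of the same length, 8.88% hold these letters. A form of the STAT site, TTCNNNGAA, sought on both strands, was found in Reg3b, at 129 bases before the start, and in none of the other 7 members with a promoter entry, against 8.47% of promoters. No match overlapped another, and each describes letters in a window, not binding.

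Reg3b, the most abundant of the 10 genes per length, ranged widely among mice of each genotype. It had 444672, 21371, 49573, 91849 and 36207 normalised reads in cKO 1 to cKO 5, against 31178, 51171, 130047, 330413 and 333499 in WT 1, 3, 4, 5 and 6. One cKO mouse and 2 WT mice stood at 330413 or more, no other library passed 130047, and the groups overlapped. Reg3b took 2.18% of all reads in cKO 1, 1.92% in WT 5 and 1.82% in WT 6, and as little as 0.137% in cKO 2. By mean level it ranked 9 among all genes in cKO and 4 in WT. The highest mouse exceeded the lowest 20.8-fold among cKO and 10.7-fold among WT. For Reg3b the log2 fold change was -0.77 (95% interval -2.97 to 1.43, limma adjusted p = 0.709), an interval that holds both a 7.85-fold lower and a 2.69-fold higher level in cKO. Without cKO 1 the log2 fold change was -1.44, without cKO 2 it was -0.35, without WT 1 it was -1.25, and without WT 5 or WT 6 it was -0.40. Without cKO 3 and cKO 5 it was -0.30, and it was -0.46 with edgeR, -0.44 with DESeq2 and -1.44 with array quality weights. None of these passed the test. The authors' deposited table gives Reg3b a log2 fold change of 0.24, of the opposite sign, with an adjusted p of 0.922. That table holds a further 2 libraries not used here, so the sample sets may differ.

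Reg3g, the lectin whose loss in mice is known to bring bacteria onto the villi, followed the same mice. It had 99366, 12816, 17479, 35939 and 11915 normalised reads in cKO 1 to cKO 5, against 23621, 17787, 46379, 108311 and 108733 in WT 1, 3, 4, 5 and 6. The same 3 libraries were highest as for Reg3b, and the groups overlapped. For Reg3g the log2 fold change was -0.92 ± 0.72 (SE), with a 95% interval of -2.53 to 0.69 and a limma adjusted p of 0.523. It was -1.42 without cKO 1, -0.39 without cKO 3 and cKO 5, and -0.38 over the 8 libraries whose replicate numbers both groups share, none of them past the test. The ratio of Reg3b to Reg3g was 4.48, 1.67, 2.84, 2.56 and 3.04 in cKO 1 to cKO 5, against 1.32, 2.88, 2.80, 3.05 and 3.07 in WT 1, 3, 4, 5 and 6. Thus 7 of the 10 ratios lay between 2.56 and 3.07, while the level of Reg3b spanned 20.8-fold.

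Cell composition was set beside the 3 libraries with high Reg3b and Reg3g, since enterocytes and Paneth cells both make these lectins. The sum of 7 Paneth markers was 24728 normalised reads in cKO 1, the highest of all libraries, but 4177 in WT 5 and 3127 in WT 6, the lowest. Over the groups it ran from 3316 to 24728 in cKO and from 3127 to 17588 in WT, and 0 of the 7 markers passed the test. The sum of 10 pancreatic acinar markers, 8 of them in the table, was 115.1 to 236.2 in cKO and 147.6 to 364.5 in WT, with Cpa1 at 0 in every library. It was 218.7 in cKO 1, 147.6 in WT 5 and 166.8 in WT 6. Most of that sum was Cela1, at 103.4 or more in every library, followed by Clps, at 10.66 to 165.0. Pnlip, Ctrb1, Cela3b and Prss2 stood at 3.815 or less. The part of either cell type in the Reg3b and Reg3g values was not tested.

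Reg3a did not share this spread. It had 848.2, 743.0, 437.5, 549.0 and 641.3 normalised reads in cKO 1 to cKO 5, against 586.0, 557.9, 911.2, 606.5 and 999.5 in WT 1, 3, 4, 5 and 6. The groups overlapped over most of their range. The log2 fold change was -0.18 (95% interval -0.63 to 0.28, limma adjusted p = 0.687), the narrowest interval of the 9 genes fitted, and -0.02 without cKO 3 and cKO 5. Its highest library exceeded its lowest 2.28-fold, against 20.8-fold for Reg3b.

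**Figure D1:**
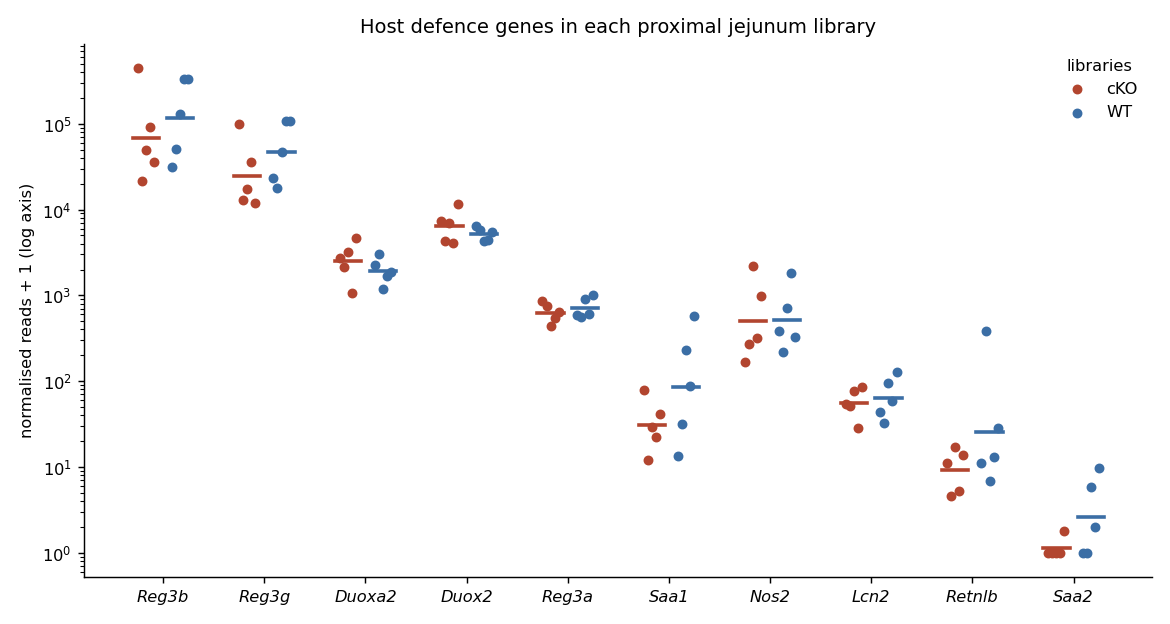
Normalised reads + 1 on a log axis for each of the 10 genes, with cKO libraries (red) left of WT libraries (blue), 5 of each; each point is 1 mouse and each bar the mean of log2(value + 1). Reg3b spans 21371 to 444672 normalised reads in cKO and 31178 to 333499 in WT, while Reg3a and Duox2 stay within a few-fold, and 0 of the 10 genes have groups that do not overlap, against 4.87% of all genes tested.

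Serum amyloid A proteins are carriers of lipids and retinol that rise with infection, and in the gut they are induced by adherent bacteria. Saa1 (chr7:46740497-46742980, - strand) had 78.8, 10.9, 28.5, 21.3 and 40.9 normalised reads in cKO 1 to cKO 5, against 12.3, 30.4, 229.0, 86.8 and 577.2 in WT 1, 3, 4, 5 and 6. WT 4 and WT 6 were above every cKO library, WT 5 just above the highest of them, and WT 1 near the lowest. Saa1 had a log2 fold change of -1.51 ± 1.01 (SE), with a 95% interval of -3.78 to 0.77 and a limma adjusted p of 0.454. Without WT 6 it was -0.82, without cKO 3 and cKO 5 it was -1.645, and over the 8 libraries with shared replicate numbers it was -0.48. It was -2.39 with edgeR, -2.38 with DESeq2, -2.16 with array quality weights and -2.18 without WT 1, and no setting brought it past the test. The highest mouse exceeded the lowest 7.22-fold among cKO and 47.0-fold among WT.

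Saa2 (chr7:46751790-46754313, + strand) was close to absent. It was counted with 0, 0, 0, 0 and 1 reads in cKO 1 to cKO 5, against 0, 0, 5, 1 and 8 reads in WT 1, 3, 4, 5 and 6. A count of 0, found in 6 of 10 libraries, allows up to 3 reads. The mean of log2(value + 1) in cKO minus that in WT was -1.20, with an exact two-sided permutation p of 0.167, where 5 against 5 can reach 0.00794. Without cKO 3 and cKO 5 this difference was -1.365. WT 4 and WT 6, highest for Saa2, were also highest for Saa1. The pair is 95.12% identical in coding bases and shares 51 stretches of 50 bases, so reads could have been split between them and the Saa2 counts are uncertain. Their promoters are alike as well, at 95.67% of 300 bases. The stretches from 200 to 101 bases before each start (RefSeq, GRCm38.p6) are shown because both carry a match, in capitals, to TTGCNNAA, a form of the site of C/EBP factors, which drive acute phase genes in liver.
Saa1, chr7:46743081-46743180, - strand: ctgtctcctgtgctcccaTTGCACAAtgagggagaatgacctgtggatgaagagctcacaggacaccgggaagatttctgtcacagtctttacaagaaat
Saa2, chr7:46751633-46751732, + strand: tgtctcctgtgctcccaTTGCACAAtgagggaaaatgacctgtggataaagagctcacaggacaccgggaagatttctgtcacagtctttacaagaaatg
These letters, sought on both strands, are in 10.8% of 27025 promoters and were also found in those of Lcn2 and Reg3a. Hepatocyte markers were near 0: 4 of the 5 were in the table, and their sum was 3.64 to 16.5 normalised reads in cKO and 5.11 to 30.3 in WT, the highest in WT 6, with Ahsg at 0 everywhere. Fat tissue also makes serum amyloid A, and the sum of 5 adipocyte markers was 4978 to 11946 in cKO and 7611 to 13538 in WT. Most of that sum was Cidec, at 4692 or more in every library. Adipoq, the adiponectin gene, had 109.4, 0, 65.0, 223.8 and 0 normalised reads in cKO 1 to cKO 5, against 0, 188.3, 0, 22.9 and 245.8 in WT 1, 3, 4, 5 and 6. Thus Adipoq was highest in WT 6, which had the highest Saa1, and at 0 in WT 4, which had the next. The part of these cells in the Saa1 values was not tested.

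Lipocalin-2 starves bacteria of iron by binding their siderophores. Lcn2 (chr2:32384633-32388252, - strand) had 53.4, 50.02, 76.1, 27.7 and 84.2 normalised reads in cKO 1 to cKO 5, against 43.0, 31.4, 93.6, 57.9 and 126.7 in WT 1, 3, 4, 5 and 6. The groups overlapped, and as for Saa1 the highest values were in WT 6 and WT 4. The log2 fold change was -0.19 (95% interval -0.99 to 0.61, limma adjusted p = 0.822), and -0.56 without cKO 3 and cKO 5. Neutrophils carry much Lcn2, and their markers were scarce. Of 9 neutrophil and monocyte markers 7 were in the table, their sum was 20.3 to 44.9 in cKO and 8.18 to 37.0 in WT, and Elane was at 0 in every library.

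DUOX2 sits in the apical membrane and releases hydrogen peroxide, and DUOXA2 brings it out of the endoplasmic reticulum. Their genes lie head to head on chromosome 2 (Duox2, chr2:122279247-122298165, - strand; Duoxa2, chr2:122298900-122302885, + strand), with RefSeq starts 673 bases apart, and TATAAA begins 30 bases before that of Duoxa2. Duox2 had 7290, 4311, 6920, 4120 and 11721 normalised reads in cKO 1 to cKO 5, against 6505, 5727, 4324, 4430 and 5518 in WT 1, 3, 4, 5 and 6. The libraries of cKO 1, cKO 3 and cKO 5 were above all WT libraries and the other 2 below them. Duoxa2 had 2756, 2140, 3237, 1063 and 4649 normalised reads in cKO 1 to cKO 5, against 2274, 2996, 1195, 1678 and 1855 in WT 1, 3, 4, 5 and 6. Again cKO 5 was highest and cKO 4 lowest.

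The log2 fold change was 0.28 ± 0.26 (SE) for Duox2, with a 95% interval of -0.26 to 0.82 and a limma adjusted p of 0.574. For Duoxa2 it was 0.38 ± 0.35 (SE), with an interval of -0.37 to 1.13 and an adjusted p of 0.584. These are the only 2 members with a positive value, and the sign rests on the mice set apart by Per2: without cKO 3 and cKO 5 the log2 fold change was -0.05 for both genes. Duox2 is also the member with the smallest adjusted p in the authors' deposited table, 0.361. The ratio of Duox2 to Duoxa2 stayed between 2.01 and 3.88 in cKO and between 1.91 and 3.62 in WT.

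**Figure D2:**
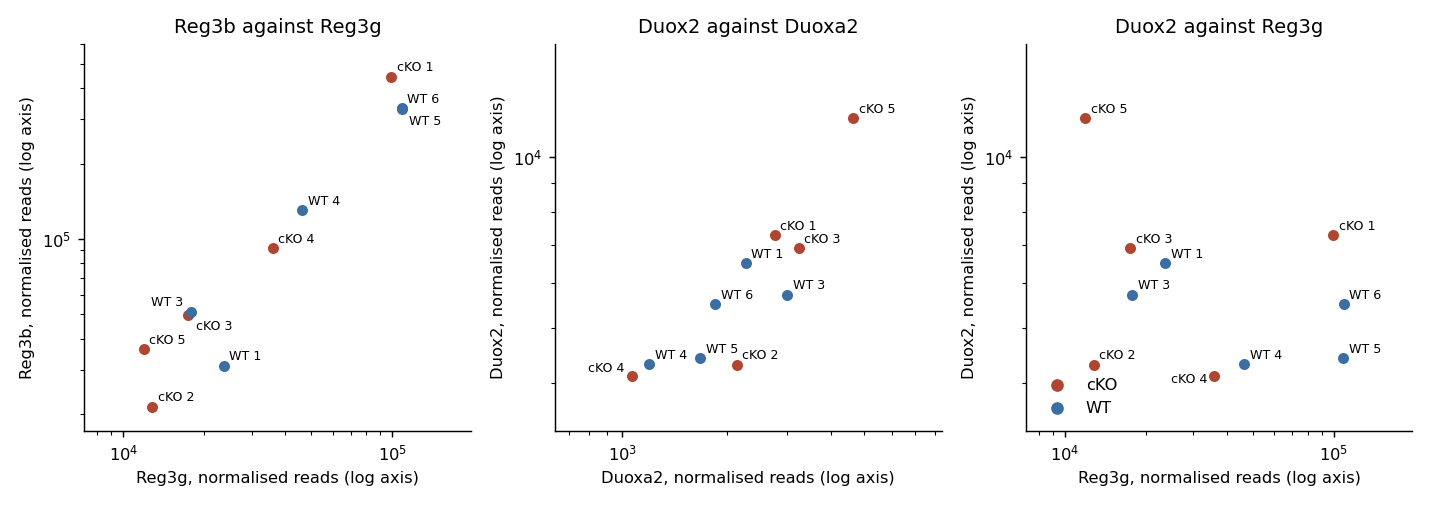
Normalised reads of Reg3b against Reg3g, Duox2 against Duoxa2 and Duox2 against Reg3g, on log axes, with 1 point per library (cKO red, WT blue). The first 2 pairs line up from low to high across both genotypes, whereas in the third cKO 5 has the highest Duox2 and the lowest Reg3g.

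Nos2 (chr11:78920787-78960254, + strand) encodes the nitric oxide synthase of activated macrophages and stimulated epithelium. It had 166.6, 269.2, 2204, 317.6 and 970.8 normalised reads in cKO 1 to cKO 5, against 381.5, 219.7, 704.6, 1819 and 329.2 in WT 1, 3, 4, 5 and 6. One mouse of each genotype, cKO 3 and WT 5, stood far above its group, and the groups covered nearly the same range. Its log2 fold change was -0.04, but its 95% interval, -1.93 to 1.85, leaves room for several-fold differences in both directions (limma adjusted p = 0.985). It was -0.58 without cKO 3, -1.08 without cKO 3 and cKO 5, and 0.41 without WT 5, none of them past the test. Ccl20, the chemokine of the epithelium over lymphoid follicles, had 96.7 normalised reads in cKO 3, against 373.1 in WT 5, its highest values in each genotype. The part of lymphoid tissue in the Nos2 values was not tested. Macrophage and mast cell markers, 9 of 9 in the table, summed to 1513 to 2201 in cKO and 1546 to 2446 in WT. The 12 lymphoid markers summed to 11968 to 44228 in cKO and 18113 to 31847 in WT, with WT 5 the lowest WT library and cKO 3 the highest of all.

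Retnlb (chr16:48816856-48818892, + strand), a goblet cell protein that kills bacteria and acts on worms, was low in all mice but one. It had 10.2, 3.64, 15.9, 4.26 and 12.8 normalised reads in cKO 1 to cKO 5, against 10.2, 387.8, 5.85, 12.0 and 27.1 in WT 1, 3, 4, 5 and 6. WT 3 alone stood apart, and the log2 fold change of -1.48 (95% interval -3.55 to 0.59, limma adjusted p = 0.422) became -0.50 without it. With edgeR it was -3.19 and without cKO 3 and cKO 5 -1.98, neither of them past the test. DESeq2 gave -3.24 but no adjusted p. Goblet markers were 7 of 7 in the table and summed to 71320 to 145940 in cKO and 85154 to 147557 in WT, the highest in WT 3. The gene for intelectin, Itln1, and the Paneth and goblet gene Ang4, both from the antibacterial list below and chosen here after their values were seen, were highest in the same mouse. Ang4 had 27.7 to 537.9 normalised reads in the 5 cKO libraries, against 6815 in WT 3 and 38.9 to 861.2 in the other 4 WT libraries.

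Across genotype, 9 of the 10 genes passed the minimum mean of 10 normalised reads and were tested, and 0 of them were called at an adjusted p under 0.05. Of all 14062 genes tested limma called 1.32%, with 0.441% higher and 0.882% lower in cKO. That is 62 genes higher and 124 lower, a split that was 72 higher and 109 lower in edgeR with TMM and 86 higher and 74 lower in edgeR with library totals. At an unadjusted p under 0.05 the members again numbered 0, against 18.6% of all genes. edgeR called 0 members, against 1.29% of all genes, and DESeq2, which gave Retnlb no adjusted p, called 0, against 5.33%. Groups that do not overlap were found for 0 members and for 4.87% of genes tested. Among the 9 values of log2 fold change the median was -0.19, with 7 of 9 negative, against 0.01 over the whole table of genes tested.

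**Figure D3:**
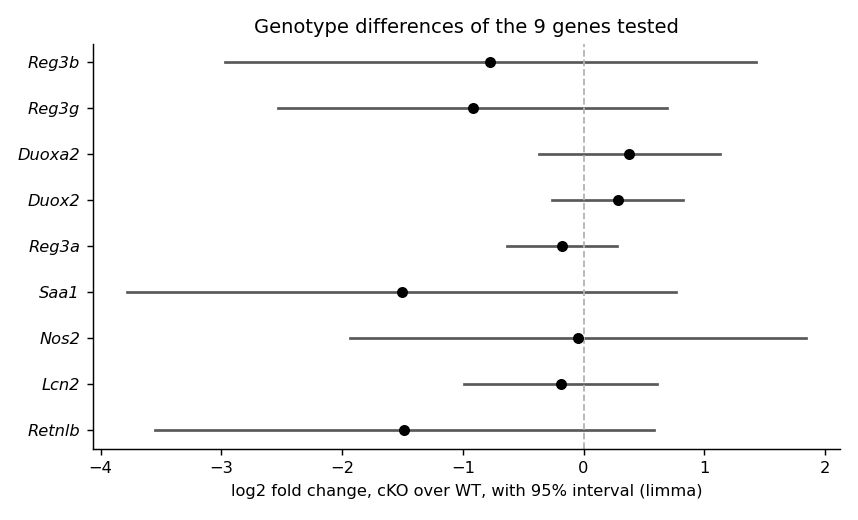
Log2 fold change, cKO over WT, of the 9 genes tested, as points with 95% intervals from limma over 10 libraries. Every interval crosses 0, from Reg3a and Duox2 with the shortest bars to Saa1, which runs from -3.78 to 0.77.

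What set several of these genes apart was the distance between mice of 1 genotype. The SD of log2(value + 1) within genotype was 1.74 for Retnlb, 1.70 for Saa1, 1.62 for Reg3b, 1.36 for Nos2 and 1.25 for Reg3g, against a median of 0.365 over the genes tested. Each of these 5 lay above at least 98.7% of genes. Lcn2 (0.717) and Duoxa2 (0.662) were above 90.6% and 87.8%, Duox2 (0.473) above 70.2%, and Reg3a (0.383) in the middle of the distribution. For Reg3b, Reg3g and Nos2 the wide spread was not that of 1 genotype. The SD was 1.68 in cKO and 1.55 in WT for Reg3b, and 1.28 in cKO and 1.21 in WT for Reg3g. For Nos2 it was 1.52 in cKO and 1.18 in WT. The spread was wider in WT for Saa1, at 1.02 in cKO and 2.18 in WT. The same held for Retnlb, at 0.838 in cKO and 2.31 in WT, where WT 3 stood apart.

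**Figure D4:**
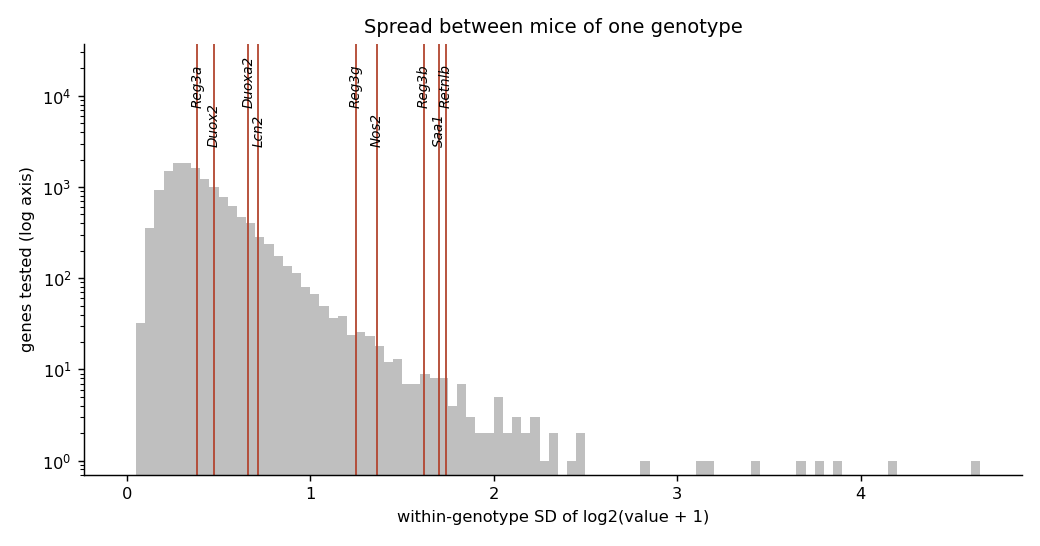
Histogram of the within-genotype SD of log2(value + 1) over the 14062 genes tested, with the number of genes on a log axis; lines mark the 9 members tested. Retnlb, Saa1, Reg3b, Nos2 and Reg3g lie in the far tail at 1.25 or more, and Reg3a near the median of 0.365.

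The members fell into groups that moved together from mouse to mouse, described here by correlations of log2(value + 1) over the 10 libraries, which share depth and genotype. Over 45 pairs the highest was Reg3b with Reg3g (Pearson's r = 0.963, Spearman's rho = 0.867), and it was 0.968 with group means removed and 0.940 without cKO 1 and WT 6, the mice farthest from the middle in Reg3b. Duox2 and Duoxa2 gave r = 0.871 and rho = 0.867, and 0.763 without cKO 4 and cKO 5. Saa1 correlated with Reg3b (r = 0.772, rho = 0.806, 0.744 without cKO 1 and WT 6). With Reg3g it gave r = 0.727, and 0.585 without WT 5 and WT 6. Saa1 and Saa2, the latter with few reads, gave r = 0.901, and 0.571 without WT 4 and WT 6. The relation of Saa1 to Lcn2 (r = 0.723, rho = 0.733) fell to 0.332 without WT 4 and WT 6 and rests on those mice. Reg3g correlated with Duox2 at -0.322 and with Nos2 at -0.076. The highest libraries were cKO 1, WT 5 and WT 6 for Reg3b and Reg3g, cKO 5 for Duox2 and Duoxa2, and cKO 3 and WT 5 for Nos2, so WT 5 was high for both the lectins and Nos2.

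**Figure D5:**
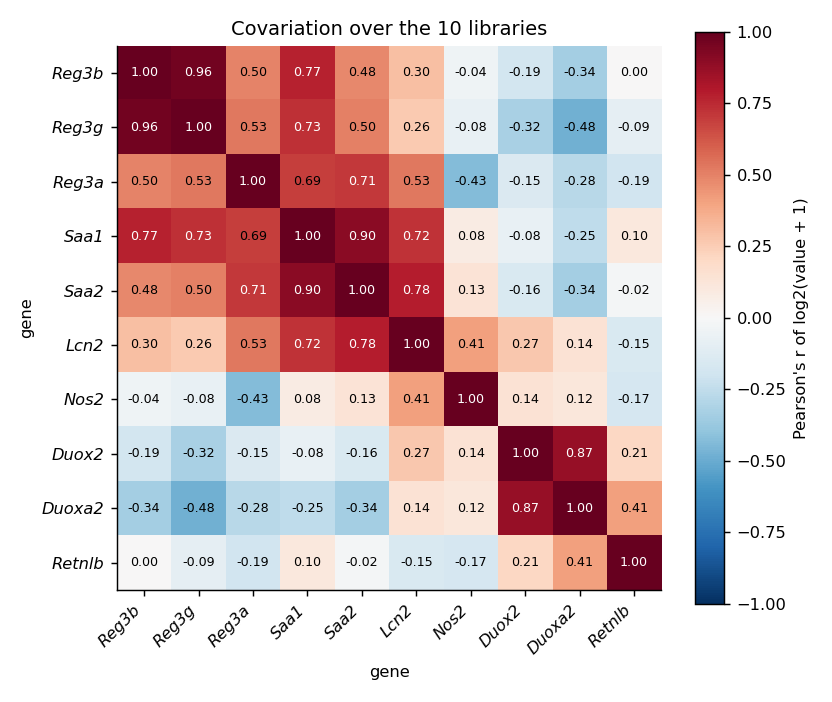
Pearson's r of log2(value + 1) between each pair of the 10 genes over the 10 libraries, from -1 (blue) to 1 (red), as a description without a test. Reg3b, Reg3g and Saa1 (0.73 to 0.96) and the pair of Duox2 and Duoxa2 (0.87) have high values. Saa1 with Lcn2 (0.72) is close to the lowest of the former. Saa1 with Saa2 is at 0.90, but Saa2 rests on 15 reads in all.

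Among 8574 genes with a mean of at least 100 normalised reads, the gene most like Reg3g was Reg3b (r = 0.963), followed by Fam162a (0.879), Baz1b (0.865) and Cep95 (0.844). Saa1 came 52nd and Reg3a 521st in that order. For Saa1 the nearest were Emilin1 (0.922), Rpl7a (0.922), Usp18 (0.814) and Gml2 (0.808), with Reg3b in place 6 and Reg3g in place 14. For Duox2 they were Setd5 (0.926), Traf6 (0.924), Tlk2 (0.924) and Cwf19l2 (0.914), with Duoxa2 in place 15. With so many genes set against 10 libraries, the order is a description only.

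By level per kb of mRNA, averaged over the 10 libraries with the SD, Reg3b came first with 194123 ± 199794 normalised reads per kb and Reg3g next with 62561 ± 53110. Reg3b was the higher in 10 of 10 libraries. A wide gap followed, as the ranges of Reg3g and Duoxa2 did not overlap. Duoxa2 had 1498 ± 675, Duox2 996 ± 375 and Reg3a 834 ± 219 normalised reads per kb. Duoxa2 exceeded Duox2 in 9 of 10 libraries, but Duox2 exceeded Reg3a in only 6, so those neighbours could not be ordered. Saa1 (183 ± 289) and Nos2 (176 ± 172) could not be ordered either, as Saa1 was higher in 3 of 10. Lcn2 (70.4 ± 33.6) and Retnlb (70.4 ± 171) had the same mean, but Lcn2 was higher in 9 libraries, and Saa2 came last at 2.35 ± 4.48.

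Since HuR binds AU-rich 3′ UTR stretches, the members' 3′ UTRs (GENCODE M21) were searched for 3 such words. The core word, ATTTA, was in 3 of the 10 genes, Reg3a, Duox2 and Nos2, against 66.2% of 12594 genes tested that have a 3′ UTR. A longer word that contains it, TATTTAT, was in Duox2, at 1 place, and in Nos2, at 2 places, against 27.5% of genes. The longest, TTATTTATT, contains both and was in Duox2 alone of the 10, against 6.89% of genes. The 3 places of TATTTAT are shown, in capitals with 9 bases to each side, since these are the AU-rich words of the set.
Duox2, base 41 of 1190: tgttctcctTATTTATtgttactgt
Nos2, base 355 of 502: atgtacagaTATTTATacttcatat
Nos2, base 444 of 502: gatgaaaaaTATTTATataaaatac
A match is a description of letters, not of binding. The 7 genes other than Reg3a, Duox2 and Nos2, Reg3b and Reg3g among them, held none of the 3 words. Their 3′ UTRs were 137 to 488 bases long. The shares over all genes were not matched for 3′ UTR length, so they do not tell whether the members are poor or rich in these words.

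In 7 lists of related genes (132 listed, 128 in the table, 98 tested), 1 gene rose and 3 fell, or 4.08% against 1.32% of all genes, with a median of -0.03 on the log2 scale. Of the other REG genes 2 of 4 were tested and 1 fell. Reg1, a REG protein of regenerating gut and pancreas within the same cluster, had 2210, 492.9, 971.8, 723.8 and 995.6 normalised reads in cKO 1 to cKO 5, against 2245, 2882, 2847, 2723 and 1995 in WT 1, 3, 4, 5 and 6. The fold was -1.41 on the log2 scale (limma adjusted p = 0.0410), and the groups overlapped through cKO 1 alone, the mouse with the highest Reg3b. The call was lost in 11 of 21 alternatives, among them without cKO 3, without cKO 5 and without any 1 WT library, over an adjusted p of 0.00172 to 0.184.

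Among 23 signalling and transcription factor genes, 0 rose and 2 fell, with a median of -0.14. Rara, a retinoic acid receptor, had 117.0, 149.1, 130.8, 131.1 and 194.0 normalised reads in cKO 1 to cKO 5, against 221.9, 275.4, 309.9, 265.4 and 249.1 in WT 1, 3, 4, 5 and 6. Every cKO library was below every WT library. Rara fell by 0.88 on the log2 scale (limma adjusted p = 0.0266) and lost its call in 8 of 21 alternatives, among them without cKO 3, WT 3, WT 4, WT 5 or WT 6, with an adjusted p of up to 0.108. Stat3, the factor downstream of the interleukin-22 receptor and named for that reason, had a log2 fold change of -0.10 (adjusted p = 0.794).

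Of 16 cytokine and receptor genes tested, 1 rose and 0 fell, with a median of -0.04. Il6st, the signal chain shared by receptors for interleukin-6 and its kin, rose by 0.76 (adjusted p = 0.0421), a call lost in 12 of 21 alternatives, among them without cKO 2, cKO 3, cKO 5 or any 1 WT library, with an adjusted p of up to 0.186. Il22, also named for its place in the route, was listed at 0 in cKO 1, cKO 2 and cKO 4 and at 2.38 and 0.802 normalised reads in cKO 3 and cKO 5, against 0 in 4 WT libraries and 2.99 in WT 5, too few reads to compare.

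In the other lists no gene passed the test. Of 19 acute phase and antibacterial genes the smallest p-values were those of Sprr2a1 (log2 fold change 1.20, adjusted p = 0.117) and Sprr2a3 (1.15, adjusted p = 0.208), small proline-rich proteins of the Sprr2a copies, between which reads could have been split. The list had a median of 0.00. Of 10 oxidase and nitric oxide genes the nearest were Cyba (-0.36, adjusted p = 0.368) and Arg2 (-0.38, adjusted p = 0.506), and the median was 0.03. Of 16 microbe sensors they were Card9 (1.30, adjusted p = 0.0967) and Cd14 (-0.73, adjusted p = 0.114), with a median of 0.34. Of 12 chemokine and glycosylation genes they were Muc4 (0.77, adjusted p = 0.227) and Ccl20 (-2.45, adjusted p = 0.241), with a median of 0.00.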

How the data were processed

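Total RNA libraries of proximal jejunum, 5 cKO and 5 WT mice, were sequenced. Per the submitters' processing notes, CASAVA, HISAT2 2.0.5 and featureCounts 1.5.0-p3 were used with mm10, and DESeq2 1.20.0. The sources used here give neither the annotation release nor the strand setting of the counting. The authors' deposited table holds normalised signal values, that is, read counts divided by a size factor per library: each value was a whole multiple, within 0.001, of the library's smallest step for 100% of values, so reads were recovered. The authors' deposited log2 fold changes and p-values served only for comparison. A further 2 columns of per-sample values match no label and were not used.

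The test was limma 3.58.1 in R 4.3.3 on log2(value + 1), with genotype alone, all 10 libraries, genes with a mean of 10 or more (14062 of 24368), trended and robust moderation, and Benjamini-Hochberg adjustment over all genes tested. Fold changes on this scale understate those of low genes. Recovered reads went to edgeR 4.0.16 (TMM, quasi-likelihood) and DESeq2 1.42.0 as alternatives. Saa2, under the minimum, had an exact permutation test. The fitting was tested on simulated data. The smallest chi-square per degree of freedom between 2 libraries of a group was 21.5, so none are near copies. The members and gene lists were chosen with earlier results of these data known. All members are named, with, from each related list, genes past the test (up to 4) or the 2 with the smallest p. Some genes that this rule picked are not reported here. Marker lists are given by their sums. Likeness names 4 genes each for Reg3g, Saa1 and Duox2. Levels per kb use GENCODE M21 mRNA lengths. Promoters of 300 bases (250 before the start, 50 after) came from RefSeq, GRCm38.p6, which matched 8 of 10 members, all but Nos2 and Retnlb. Each mouse gave 1 library, and intervals are at 95%. Figures were drawn with matplotlib 3.10.9.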

Additional observations from a re-analysis of the deposited data

Results flagged for a closer look

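A library far from its own group was looked for in 20 sets of 5 libraries, 10 genes in each genotype, and 4 were found. The search used normalised reads, not their logs. Its nominal rate of 1 in 20 holds for normally distributed values, and read levels are skewed. Reg3b and Reg3g also moved together, so the 4 cannot be set against a number given by chance. Reg3b stood at 444672 normalised reads in cKO 1, against 21371 to 91849 in the other cKO libraries. Reg3g stood at 99366 in the same mouse, against 11915 to 35939. Both genes reached such levels in WT 5 and WT 6, so cKO 1 was far from its genotype but not from all mice. It also had the highest share of mitochondrial reads (9.48%) and the highest enterocyte and Paneth marker sums, whose part in the Reg3 values was not tested. The enterocyte markers were not high as a set in cKO 1. Fabp1, Fabp2 (569523 normalised reads) and Sis (278981) were at their highest there. Alpi, Vil1, Lct, Apoa4 and Anpep were below every WT library. Retnlb stood at 387.8 in WT 3, against 5.85 to 27.1 in the other WT libraries. Saa2 stood at 0.802 in cKO 5, against 0 in the other 4 cKO libraries, which is a single read.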

How the results depend on the processing

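No member was called under any of the alternatives run. The count of all genes called, 186, was 750 with DESeq2, 88 over the 8 libraries whose replicate numbers both groups share (130 with the number as a replicate block), 56 without cKO 3 and cKO 5, and 30 (without WT 4) to 611 (without cKO 4) when 1 library was left out. Genes called in the related lists, 4, were 9 with DESeq2, 1 over those 8 libraries with or without the replicate block, 2 without cKO 3 and cKO 5, and 0 (without WT 4) to 6 (without cKO 4) with 1 library left out. Deviations of same-numbered libraries correlated at 0.118, 0.022, -0.105 and 0.096, and no cKO library correlated best with its own number. These few values did not show a pairing by number, but they cannot settle whether there was one. In edgeR with library totals the median of all genes was 0.14 on the log2 scale and the split of calls was 86 higher and 74 lower, against 72 and 109 in edgeR with TMM and 62 and 124 in limma.

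Signs turned for 5 members and for Arg2. Reg3b, at -0.77 with all libraries, was at 0.024, Nos2 at 0.02 and Lcn2 at 0.093 over the 8 libraries, with and without the replicate block. Duox2 and Duoxa2 were at -0.05, and Arg2 at 0.074, without cKO 3 and cKO 5. Nos2 was at 0.21 with edgeR, 0.20 with DESeq2 and 0.45 with library totals. With 1 library left out it ran from -0.58 to 0.41 and Lcn2 from -0.43 to 0.063. The causes were not tested. Saa2 and Il22 had too few reads to compare at this depth.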

Other observations

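Both chains of the interleukin-22 receptor, chosen here after their values were seen, had lower values in cKO without passing the test over all genes. Il10rb had 1158, 1385, 619.8, 1703 and 890.6 normalised reads in cKO 1 to cKO 5, against 2047, 1711, 1730, 1753 and 2039 in WT 1, 3, 4, 5 and 6. Every cKO library was below every WT library (log2 fold change -0.77, limma adjusted p = 0.100), and groups that do not overlap were found for 4.87% of all genes tested. Il22ra1 overlapped between groups (-0.48, adjusted p = 0.209). Of the 16 cytokine and receptor genes tested, 8 had a positive and 8 a negative log2 fold change. Ifngr1, also chosen after its values were seen, was higher in every cKO library than in any WT library (0.61, limma adjusted p = 0.083). Il17a, also chosen after its values were seen and under the minimum mean, had 2.54, 2.73, 3.96, 3.20 and 1.60 normalised reads in cKO 1 to cKO 5, against 1.02, 0, 0.975, 0.998 and 0 in WT 1, 3, 4, 5 and 6, a handful of reads in any library. Pglyrp1, a peptidoglycan-binding protein also chosen after its values were seen, had 765.5 normalised reads in cKO 1, 1079.8 in cKO 4 and 556.6 to 639.6 in the other 3 cKO libraries, against 1339 in WT 5, 1398 in WT 6 and 506.3 to 597.3 in the other 3 WT libraries.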
